A study of Mus musculus with 14 samples.

Results

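The 10 genes described here encode antioxidant and redox proteins: the superoxide dismutases Sod1 and Sod2, the peroxide-removing enzymes Cat, Gpx1, Gpx3 and Prdx4, glutathione reductase (Gsr), the thioredoxin inhibitor Txnip, and the stress-induced enzymes Hmox1 and Nqo1. Each was taken as the probe set that the platform annotation gives a single matching gene symbol, and all 10 were measured among the 18820 genes tested. Where a gene had several such probe sets the one with the highest mean over the arrays was used, which applied to Sod1 alone, with 2 probe sets. RNA came from pancreatic islets of 14 mice, 1 mouse per array by the wording of the labels. Wild type C57BL/6 mice (WT) and mice lacking both Toll-like receptors Tlr2 and Tlr4 on a C57BL/6 background (DKO) ate a diet with 60% fat from 6 weeks of age. Islets were taken after 5 weeks of the diet (4 WT and 2 DKO arrays) or after 7 months (4 WT and 4 DKO arrays). Every mouse was on the high-fat diet, so no lean control was compared, and time on the diet and age cannot be told apart. The deletion is present in every cell of the DKO mice, so an effect in islet cells and an effect from outside the islet cannot be told apart. Values are log2 signals made by RMA, and a difference of 1 on this scale is a doubling of signal.

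Superoxide made by respiration is turned into hydrogen peroxide by the superoxide dismutases, and catalase, glutathione peroxidases and peroxiredoxins then remove the peroxide. Glutathione reductase and thioredoxin reductase restore the reduced partners of these enzymes with electrons from NADPH, and Txnip binds reduced thioredoxin and blocks it. Beta cells are known for low catalase and glutathione peroxidase activity and for high Txnip when glucose is high, and Txnip transcription is driven by the glucose-sensing factors ChREBP (Mlxipl) and MondoA (Mlxip). Hmox1 and Nqo1 are classical targets of the stress factor Nrf2.

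Across the arrays the median signal of all probe sets lay between 3.89 and 3.98. Tlr2 signal was 6.22 to 6.62 in the 8 WT arrays and 4.77 to 5.41 in the 6 DKO arrays, with no overlap, whereas Tlr4 was dim throughout (2.70 to 3.60) and did not separate the genotypes. The 13 measured beta cell markers were above the array's median in each of the 14 arrays. Their mean level, each gene centred on its own mean, was -0.12, 0.08, -0.18 and -0.21 in DKO 7-month replicates 1 to 4. In WT at 7 months it was 0.03 to 0.09. None of the 13 passed for genotype at 7 months. With DKO 7-month replicate 2 left out, 4 were lower in DKO, where 8.93% of all genes passed. Acinar markers, 16 measured genes of the digestive enzyme-making cells around islets, varied widely: their summed linear signal was 1862 to 11185 in WT at 5 weeks, 11459 and 14478 in DKO at 5 weeks, 914 to 11894 in WT at 7 months and 5476 to 8426 in DKO at 7 months. Against WT at 7 months the DKO arrays had lower markers of endocrine cells other than beta cells (8 of 10 measured genes passed, all lower). Stellate and fibroblast markers were higher (7 of 12 passed, all higher). Of all genes 4.71% passed in that comparison. DKO 7-month replicate 2 received the lowest array weight (0.542) and stood apart for several of the genes below, so results that rest on it are given with and without it.

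Genotype was compared at each time, time was compared within each genotype, and the interaction asked whether the genotype difference itself changed with time. All used limma with Benjamini-Hochberg adjustment over 18820 genes and a threshold of 0.05.
At 5 weeks none of the 10 genes passed the test between DKO and WT, where 0.994% of all genes passed. At 7 months Cat and Prdx4 were higher in DKO, 2 of 10 against 4.71% of all genes (2.44% in the higher direction). Over time no member passed in WT (2.37% of all genes), and Prdx4 rose in DKO, 1 of 10 against 7.57% (4.86% in that direction). No member passed the interaction (0.0903% of all genes). By the looser count of groups that do not overlap, 4 members separated the genotypes at 5 weeks, 2 at 7 months, 3 separated the times in WT and 4 in DKO, while 21.6%, 10.6%, 11.6% and 26.7% of all genes did so. The median difference of the 10 genes was -0.02 at 5 weeks and 0.19 at 7 months for genotype, against 0.01 and 0.01 over all genes, and -0.01 in WT and 0.08 in DKO for time, against 0.03 and 0.02. In bulk islet RNA fewer cells of a type and less RNA per cell cannot be told apart, and this holds for each difference below.

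**Figure D1:**
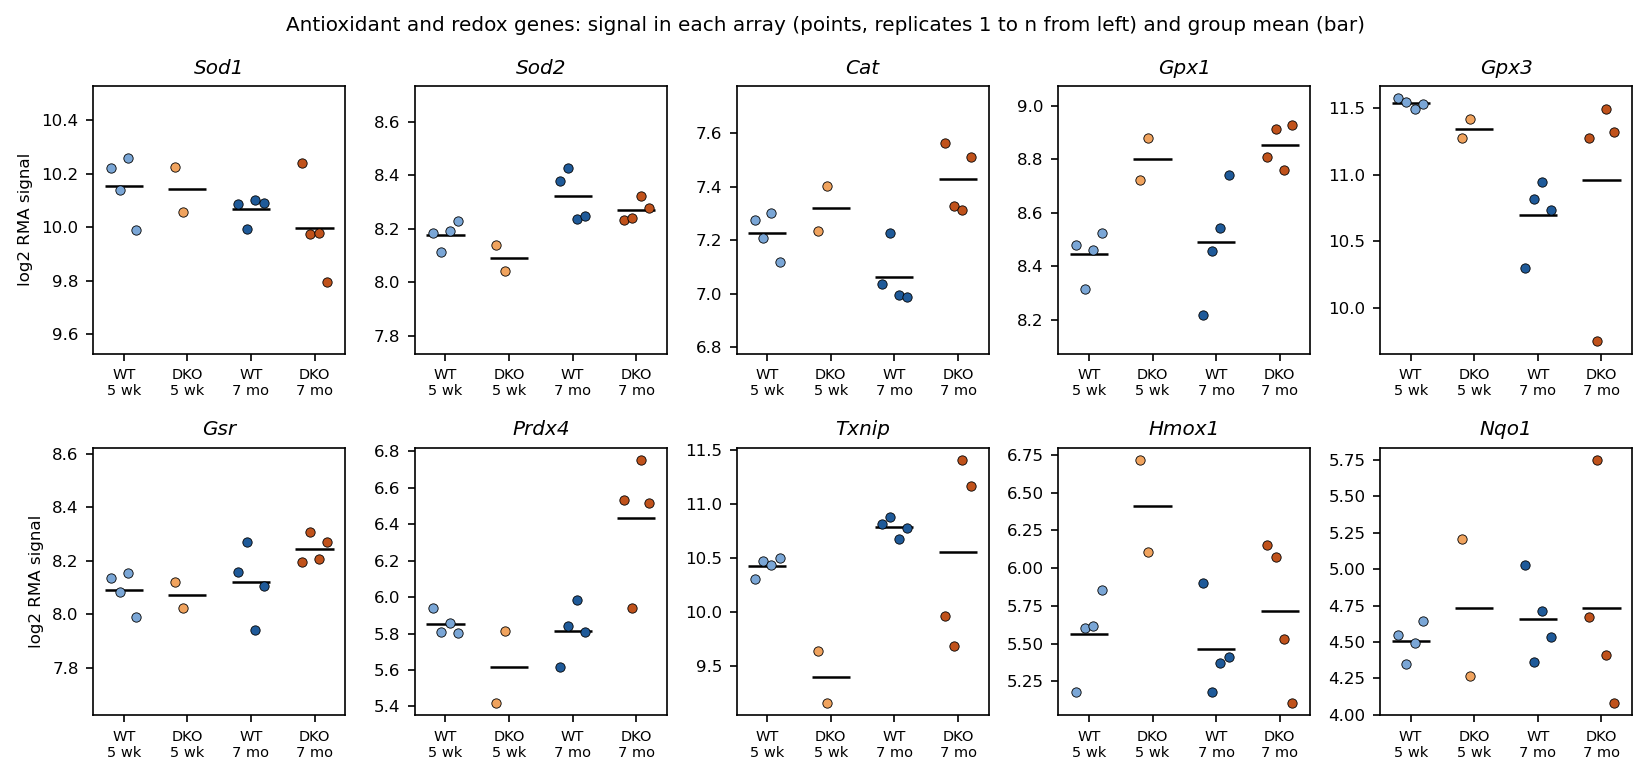
Log2 RMA signal of the 10 genes (one panel each, own vertical scale) in each of the 14 arrays, points ordered by replicate number within a group, with the group mean as a bar. Cat in the 4 DKO 7-month arrays (7.31 to 7.57) lies above the 4 WT 7-month arrays (6.99 to 7.23), and Txnip in the DKO 7-month group spreads from 9.69 to 11.41.

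The superoxide dismutases differed little between groups. Sod1 (probe set 10436783, gene at chr16:90220762-90226333, GRCm38.p6) encodes the copper-zinc enzyme of the cytosol and lay between 9.80 and 10.26 in all 14 arrays. Its DKO against WT difference was -0.01 ± 0.12 (SE) at 5 weeks and -0.07 ± 0.10 at 7 months, and its largest difference in any comparison, over time in DKO, was -0.14 ± 0.12 (adjusted p = 0.529). The dimmer Sod1 probe set 10538855 ranged from 7.73 to 8.30, and on it both DKO 5-week arrays (8.30 and 8.15) were above every WT 5-week array (7.73 to 8.13) and every DKO 7-month array (7.90 to 8.10), a separation the brighter probe set did not show. Sod2 (chr17:13007839-13018119), the manganese enzyme of mitochondria, was 8.18, 8.11, 8.19 and 8.23 in WT at 5 weeks, 8.14 and 8.04 in DKO at 5 weeks, 8.38, 8.42, 8.24 and 8.25 in WT at 7 months and 8.23, 8.24, 8.32 and 8.28 in DKO at 7 months. In each genotype every 7-month array was above every 5-week array, by a small step: 0.14 ± 0.07 in WT (adjusted p = 0.38) and 0.18 ± 0.09 in DKO (adjusted p = 0.26), neither past the threshold. The 95% interval of the 7-month genotype difference in Sod2 was -0.21 to 0.10.

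Cat (probe set 10485466, chr2:103453904-103485153) encodes catalase, the peroxisomal enzyme that splits hydrogen peroxide without a cofactor to recycle. Its signal was 7.28, 7.21, 7.30 and 7.12 in WT at 5 weeks and 7.24 and 7.40 in DKO at 5 weeks. At 7 months it was 7.04, 7.23, 7.00 and 6.99 in WT and 7.57, 7.33, 7.31 and 7.51 in DKO. The 7-month genotypes did not overlap, and the 5-week arrays lay between or among them. Cat was 1.29-fold higher in DKO at 7 months (difference 0.37 ± 0.09, adjusted p = 0.0275), while the 5-week difference was 0.09 ± 0.11 (adjusted p = 0.821). The change of the genotype difference with time was 0.28 ± 0.14 and did not pass (adjusted p = 0.536), so the time points were not shown to differ. The 7-month call was lost with an acinar covariate (0.33, adjusted p = 0.095), with only the 7-month arrays fitted (adjusted p = 0.0762) or all probe sets tested (adjusted p = 0.0512), and without any of WT replicate 1, 3 or 4 or DKO replicate 1 or 4, where the difference was 0.32 to 0.36 (adjusted p = 0.0739 to 0.0803). Red blood cells are rich in catalase, and Alas2, the haem-synthesis enzyme of red cell precursors, was also higher in DKO at 7 months by 1.38 (adjusted p = 0.0122), with 5.55, 5.94, 5.37 and 4.17 in DKO against 4.33, 3.78, 4.01 and 3.40 in WT. Of 11 listed red cell markers 4 were measured, and Alas2 was the only 1 that passed for genotype at 7 months. The summed linear signal of the 4 was 74.4, 93.0, 67.0 and 37.4 in DKO replicates 1 to 4 and 30.1 to 38.8 in WT at 7 months. Alas2 was the brightest of them in each 7-month array and is part of the sum. Slc4a1 was 4.10, 4.40, 3.74 and 3.07 in DKO replicates 1 to 4 and 2.94 to 3.18 in WT at 7 months. Epb42 and Klf1 overlapped between the genotypes at that time. DKO replicate 4, with Cat at 7.51, had a sum inside the WT range. The part of red cells in the Cat difference was not tested.

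Gpx1 (chr9:108339080-108340342), the main intracellular glutathione peroxidase, had the same direction at both times. It was 8.48, 8.31, 8.46 and 8.52 in WT and 8.72 and 8.88 in DKO at 5 weeks, and 8.22, 8.46, 8.54 and 8.74 in WT and 8.81, 8.91, 8.76 and 8.93 in DKO at 7 months. Every DKO array exceeded every WT array of its own time. The difference was 0.36 ± 0.13 at 5 weeks (adjusted p = 0.241) and 0.36 ± 0.10 at 7 months (adjusted p = 0.0585), neither past the threshold in the fit used here. At 7 months it passed without WT replicate 4, the highest WT array (0.45, adjusted p = 0.024), and under 3 other settings, a trended prior, dim genes left out and arrays centred on their medians (adjusted p = 0.0238 to 0.0349).

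Gpx3 (chr11:54902854-54910387) encodes the secreted glutathione peroxidase. It was 11.57, 11.54, 11.50 and 11.53 in WT at 5 weeks, 11.27 and 11.42 in DKO at 5 weeks, 10.30, 10.82, 10.94 and 10.73 in WT at 7 months and 11.27, 9.75, 11.49 and 11.32 in DKO at 7 months. The WT arrays of the later time were all below the earlier ones, whereas 3 of the 4 DKO arrays stayed near the 5-week level and replicate 2 was the lowest of all 14. The time difference in WT was -0.84 ± 0.28 (adjusted p = 0.164) and the 7-month genotype difference 0.26 ± 0.28 (adjusted p = 0.692). The time difference in WT passed with array weights (adjusted p = 0.0405) and with only the WT arrays fitted (adjusted p = 0.00659). Both calls changed without DKO replicate 2, whose distance from its group widens the error of the whole fit. This replicate was left out after its values, Gpx3 among them, were seen. Without it Gpx3 fell with time in WT by 0.84 (adjusted p = 0.00176), where 2.8% of all genes passed. Gpx3 was then higher in DKO at 7 months by 0.66 (adjusted p = 0.0056), where 8.93% of all genes passed.

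Prdx4 (probe set 10607475, chrX:155323918-155342272) encodes the peroxiredoxin of the endoplasmic reticulum (ER), which uses hydrogen peroxide to help form disulfide bonds in secreted proteins such as proinsulin. Its signal was 5.94, 5.81, 5.86 and 5.81 in WT at 5 weeks, 5.42 and 5.81 in DKO at 5 weeks and 5.62, 5.84, 5.99 and 5.81 in WT at 7 months. In DKO at 7 months it was 6.53, 5.94, 6.75 and 6.52. Replicates 1, 3 and 4 of that group were above each of the other 11 arrays, and replicate 2 lay inside the WT range. Prdx4 was 1.54-fold higher in DKO at 7 months (0.62 ± 0.15, adjusted p = 0.0251), rose 1.76-fold with time in DKO (0.82 ± 0.18, adjusted p = 0.0127) and differed by -0.04 ± 0.15 with time in WT (adjusted p = 0.939). The interaction, 0.86 ± 0.23, did not pass (adjusted p = 0.187), but did without DKO 7-month replicate 2 (1.02, adjusted p = 0.0147), when 0.983% of all genes passed. The 7-month genotype call was lost without WT replicate 1, 2 or 4 or DKO replicate 1, 3 or 4 (0.52 to 0.63, adjusted p = 0.0556 to 0.0852) and with an acinar covariate, only the 7-month arrays or all probe sets (adjusted p = 0.0612 to 0.0785). The rise in DKO was lost without DKO 5-week replicate 1, the lowest array of all (0.62, adjusted p = 0.205), and with only the DKO arrays fitted (adjusted p = 0.124).

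Gsr (chr8:33653238-33698162), which returns oxidised glutathione to its reduced form, lay between 7.94 and 8.31. It did not pass in any comparison, and its 7-month genotype difference was 0.13 ± 0.08 (adjusted p = 0.454).

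**Figure D2:**
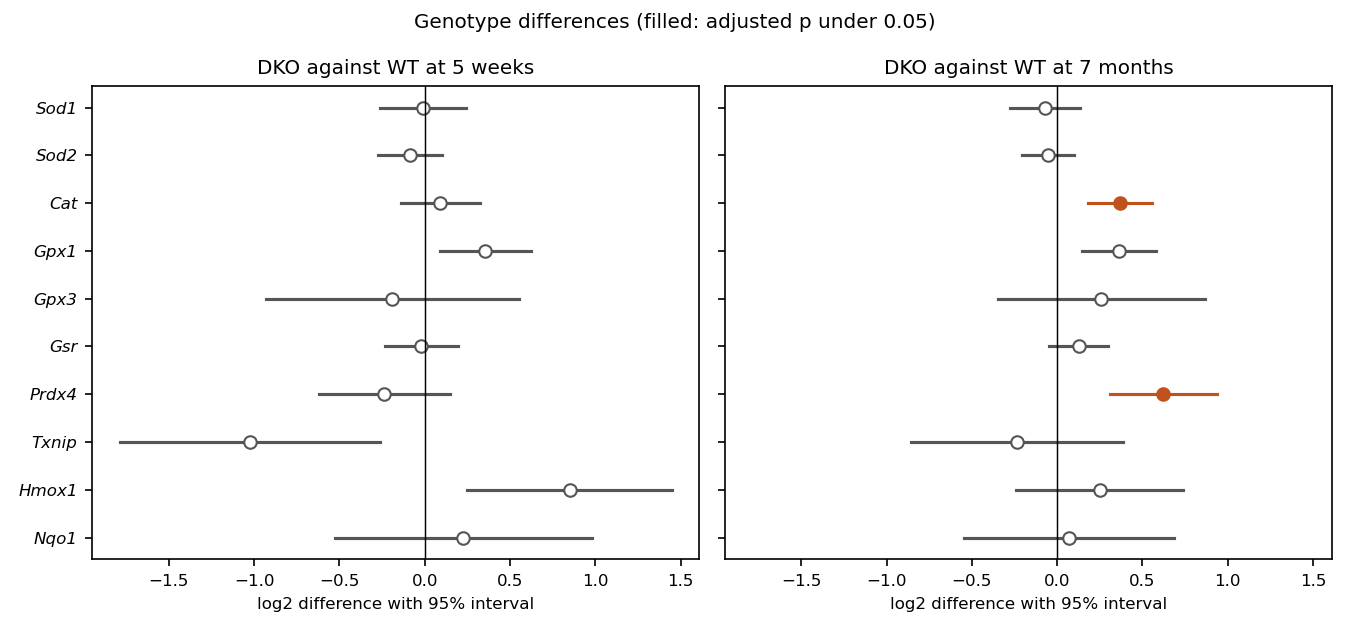
Difference DKO minus WT in log2 signal with its 95% interval for the 10 genes at 5 weeks (left) and 7 months (right), with filled points where the adjusted p was under 0.05. Cat (0.37) and Prdx4 (0.62) at 7 months are the filled points, and the widest interval at 5 weeks is that of Txnip (-1.79 to -0.26).

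Txnip (probe set 10494428, chr3:96557957-96561857) had the largest differences of the 10 genes at 5 weeks and with time in DKO. Its signal was 10.30, 10.47, 10.44 and 10.50 in WT and 9.65 and 9.16 in DKO at 5 weeks. At 7 months it was 10.82, 10.88, 10.68 and 10.78 in WT and 9.97, 9.69, 11.41 and 11.16 in DKO. The WT groups were tight (SD 0.09 and 0.08), both DKO 5-week arrays were below every WT array of either time, and the DKO 7-month group split, with replicates 1 and 2 below and replicates 3 and 4 above all 8 WT arrays (SD 0.86). The summed linear signal of the 13 measured tissue handling and immediate early genes was also lower in both DKO 5-week arrays (1383 and 1448) than in the WT 5-week arrays (1800 to 2032). None of the 13 passed at 5 weeks, with a list median of -0.22 against 0.01 over all genes. Jund, Ier2 and Atf3 had higher means in DKO. WT 7-month replicates 3 and 4 had sums of 1405 and 1534, with Txnip at 10.68 and 10.78. The part of these genes in the 5-week differences was not tested. The 5-week difference of Txnip was -1.02 ± 0.36 (2.03-fold lower in DKO, 95% interval -1.79 to -0.26) and did not pass (adjusted p = 0.233). It passed when only the WT and DKO 5-week arrays were fitted (adjusted p = 0.0207), where the DKO 7-month spread does not enter the error. At 7 months the difference was -0.23 ± 0.29 (adjusted p = 0.736). With time Txnip differed by 0.36 ± 0.29 in WT (adjusted p = 0.633, or 0.0375 with only the WT arrays fitted), every later array being higher, and by 1.15 ± 0.36 in DKO (adjusted p = 0.0647). The DKO time difference passed without DKO 7-month replicate 2 (1.44, adjusted p = 0.00735) and without replicate 1 (1.35, adjusted p = 0.0398), and with dim genes left out, arrays centred or weighted (adjusted p = 0.0447 to 0.0455). The interaction was 0.79 ± 0.46 (adjusted p = 0.611).

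The promoter letters of Txnip are shown because the gene is known as a carbohydrate response gene and its nearest relative moved with it, and those of Prdx4 because it is a member that passed the test in more than 1 comparison. The windows are the 250 bases before the transcript start given in the RefSeq table for GRCm38.p6. For Prdx4 that start, just below chrX:155338461-155338710 on the minus strand, lies inside the gene's annotated span rather than at its outer end. The table held 8 of the 10 members, Gsr and Hmox1 being the others. Capitals mark a match to the paired half-site of carbohydrate response elements, 2 copies of CACGNG with 5 bases between them, in Txnip (chr3:96557707-96557956, plus strand), written down after this promoter was seen. In Prdx4 and in Arrdc4 (chr7:68749239-68749488, minus strand) they mark the E-box CACGTG, and in Arrdc4 also the antioxidant response element core TGACNNNGC on the opposite strand.
Txnip: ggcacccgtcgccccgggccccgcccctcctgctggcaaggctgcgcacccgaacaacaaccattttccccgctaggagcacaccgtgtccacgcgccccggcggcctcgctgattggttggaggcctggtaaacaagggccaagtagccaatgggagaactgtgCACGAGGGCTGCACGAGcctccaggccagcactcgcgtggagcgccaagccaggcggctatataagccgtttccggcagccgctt
Prdx4: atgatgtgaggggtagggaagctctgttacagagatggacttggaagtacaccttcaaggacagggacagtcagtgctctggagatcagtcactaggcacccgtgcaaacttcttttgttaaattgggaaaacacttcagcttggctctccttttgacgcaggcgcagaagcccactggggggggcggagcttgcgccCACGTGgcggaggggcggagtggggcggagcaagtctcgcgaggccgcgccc
Arrdc4: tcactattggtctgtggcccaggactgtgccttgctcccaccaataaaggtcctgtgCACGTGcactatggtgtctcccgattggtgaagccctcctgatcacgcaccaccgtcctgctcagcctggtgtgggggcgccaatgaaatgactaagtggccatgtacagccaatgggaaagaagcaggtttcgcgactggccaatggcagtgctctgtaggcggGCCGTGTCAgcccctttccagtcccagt
Both strands of windows from 250 bases before to 50 after each start were searched. The paired half-site was found in 16 of 32851 windows (0.0487%), and among the members in Txnip, where it begins at -85 from the start. CACGTG was found in 7.15% of windows, among the members in Prdx4, at -52. The core TGACNNNGC was found in 12.4% of windows, among the members in Sod1, at -56, and in Nqo1 these letters are not in this window. CACGTG is a form that the half-site letters also allow, so the searches overlap.

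The genes whose signal was most like that of Txnip over the 14 arrays, of 17977 ranked, were Klf10 (Pearson r = 0.946, Spearman rho = 0.934), a zinc finger repressor, Zfp979 (r = 0.907, rho = 0.864) and Arrdc4 (r = 0.907, rho = 0.943), an arrestin-domain gene of the Txnip family. Leaving out the 2 arrays farthest from the Txnip median left r at 0.94, 0.886 and 0.898. The arrays share their group structure, so these are descriptions with no test. Arrdc4 was 6.03, 5.92, 6.05 and 6.17 in WT and 5.26 and 5.44 in DKO at 5 weeks, and 6.29, 6.57, 6.32 and 6.39 in WT and 6.08, 5.77, 7.52 and 6.98 in DKO at 7 months. Within the DKO 7-month group its 4 arrays stood in the same order as for Txnip, replicate 2 lowest and replicate 3 highest. Arrdc4 rose with time in DKO by 1.24 ± 0.33 (adjusted p = 0.0349), and its relative Arrdc3 rose by 0.51 ± 0.12 (adjusted p = 0.0172). Mlxipl, the gene for ChREBP, went the other way within that group, with 9.02, 9.39, 8.70 and 8.21 in replicates 1 to 4, against 9.38, 9.42, 9.43 and 9.22 in WT at 7 months. Of the 13 measured genes of the Txnip family and glucose-sensing list none passed for genotype at either time, and 2 rose with time in DKO, where 7.57% of all genes passed. The list's median there was 0.08, against 0.02 over all genes. Without DKO 7-month replicate 2, when 8.93% of all genes passed for genotype at 7 months, 2 of the 13 were lower in DKO, Mlxipl (-0.72, adjusted p = 0.00739) and Foxo1 (-0.29, adjusted p = 0.0474).

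**Figure D3:**
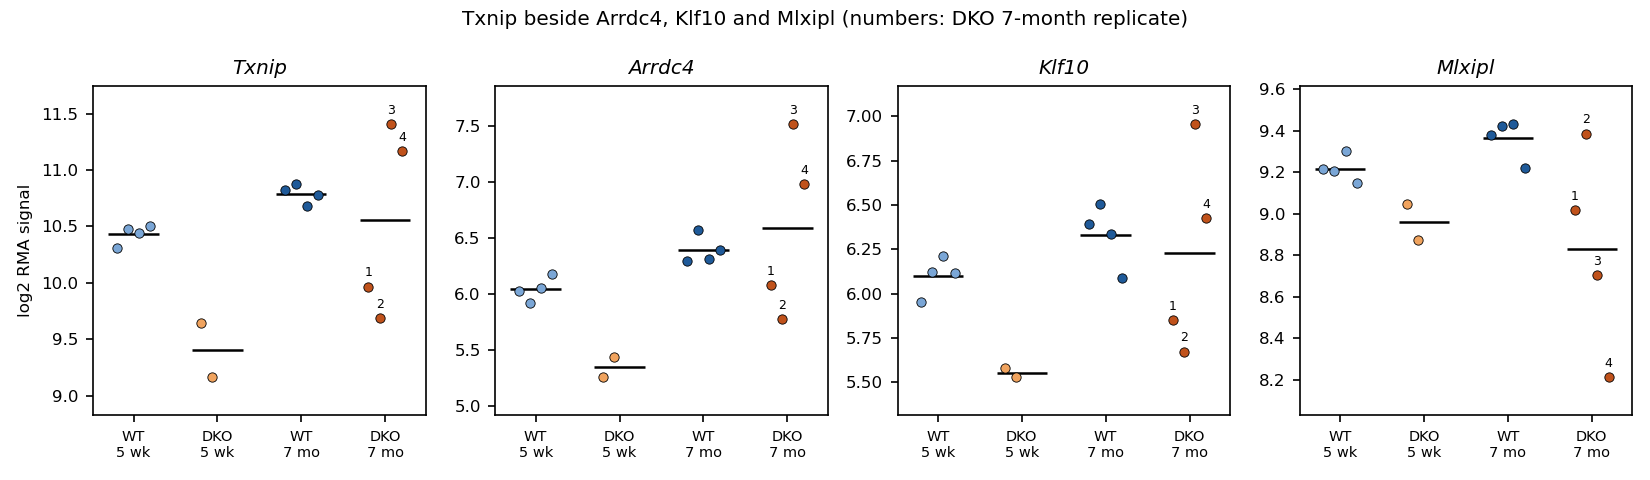
Log2 signal of Txnip, its relative Arrdc4, Klf10 and the ChREBP gene Mlxipl in each array, with the group mean as a bar and the replicate number beside each DKO 7-month point. In that group replicates 3 and 4 are the upper points for Txnip (11.41 and 11.16) and the lower points for Mlxipl (8.70 and 8.21).

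Hmox1 (probe set 10572897, chr8:75093618-75100593), haem oxygenase, opens the haem ring and is induced by oxidants. It was 5.18, 5.60, 5.62 and 5.86 in WT and 6.72 and 6.11 in DKO at 5 weeks, and 5.90, 5.18, 5.37 and 5.41 in WT and 6.15, 6.07, 5.53 and 5.11 in DKO at 7 months. Both DKO arrays exceeded every WT array at 5 weeks, and the 7-month groups overlapped. The 5-week difference was 0.85 ± 0.28 (1.80-fold, adjusted p = 0.209) and the time difference in DKO -0.70 ± 0.28 (adjusted p = 0.159), neither past the threshold. Within the DKO 7-month group the replicates low for Txnip, 1 and 2, were the high ones for Hmox1. Macrophages also express Hmox1, and their 16 markers summed to 840 and 905 in DKO and 755 to 886 in WT at 5 weeks; their part was not tested.

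Nqo1 (chr8:107388225-107403205), a quinone reductase, scattered most in DKO. In WT it lay between 4.35 and 5.03, and in DKO it was 5.21 and 4.27 at 5 weeks and 4.67, 5.75, 4.41 and 4.08 at 7 months. The DKO arrays included both the highest and the lowest of the 14, and no comparison passed (smallest adjusted p = 0.865 over time in WT).

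**Figure D4:**
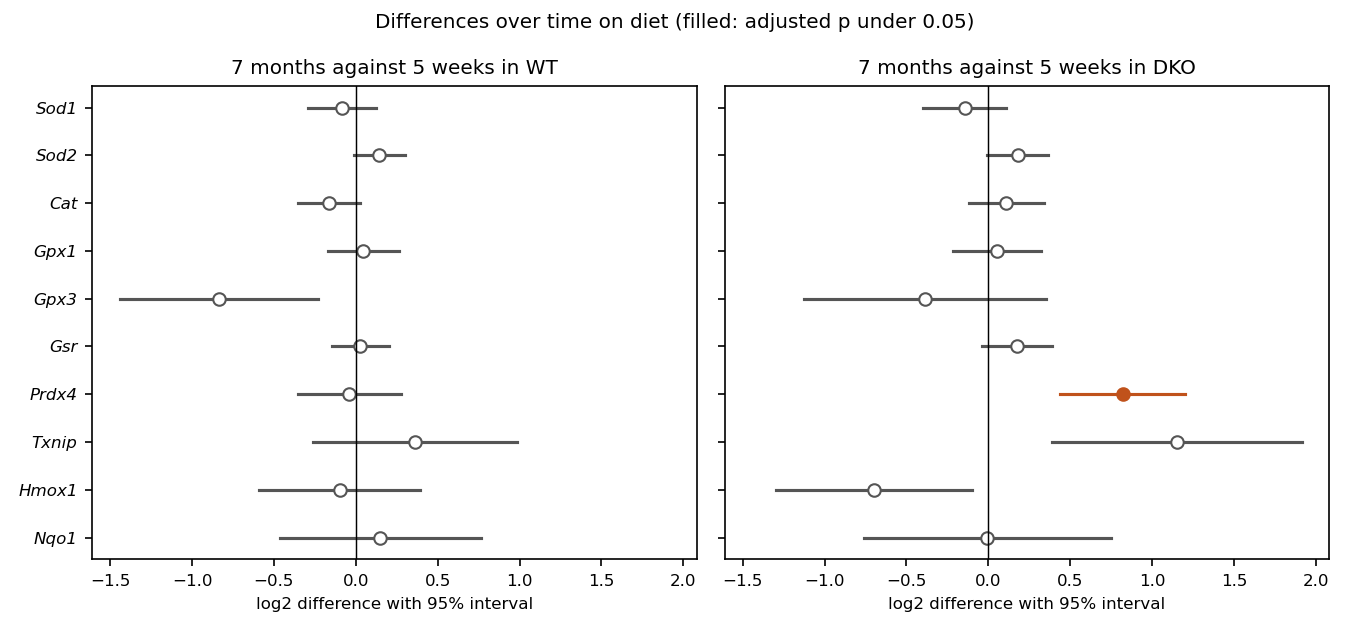
Difference 7 months minus 5 weeks in log2 signal with its 95% interval for the 10 genes in WT (left) and DKO (right), with filled points where the adjusted p was under 0.05. Prdx4 in DKO (0.82) is the filled point, and Txnip in DKO (1.15) and Gpx3 in WT (-0.84) have the largest differences on either side.

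The other redox genes were counted over 11 lists with 166 genes, of which 152 were measured. At 5 weeks 3 differed between genotypes (1.97%, against 0.994% of all genes), at 7 months 10 (6.58%, against 4.71%), with time in WT 3 (1.97%, against 2.37%) and with time in DKO 21 (13.8%, against 7.57%), and none passed the interaction. These counts moved with single arrays. Without DKO 7-month replicate 2, an alternative chosen after the data were seen, 26 passed at 7 months, when 8.93% of all genes did, and 37 with time in DKO, when 10.9% did; without DKO 5-week replicate 1, 20 of the 21 calls with time in DKO were lost and Gsto1 alone passed. Of the 37 calls of list genes over the comparisons, 5 passed without each single array in turn: Nnt between genotypes at both times, Gpx8 and Nxn at 7 months and Gsto1 with time in DKO.

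In the NADPH supply list Nnt passed the genotype test at both times. Nnt, the mitochondrial transhydrogenase that makes NADPH from NADH, was 7.01, 7.00, 7.05 and 6.94 in WT and 8.33 and 8.73 in DKO at 5 weeks, and 7.35, 7.23, 7.32 and 7.34 in WT and 9.03, 8.76, 8.95 and 8.93 in DKO at 7 months. The genotypes did not overlap, and Nnt was 2.89-fold higher in DKO at 5 weeks (1.53 ± 0.11, adjusted p = 9.71e-06) and 3.05-fold at 7 months (1.61 ± 0.09, adjusted p = 1.96e-07). Over 25 alternative settings the Nnt difference ranged from 0.92 to 1.73 at 5 weeks and from 0.90 to 1.66 at 7 months. Its size thus depended on the processing. The substrain C57BL/6J is known to carry a deletion in Nnt, the labels give C57BL/6 with no substrain, and the effect of strain origin cannot be told apart from that of Tlr2 and Tlr4 loss for any gene compared by genotype. Me1, cytosolic malic enzyme, was also higher at 7 months (0.33 ± 0.08, adjusted p = 0.0239). With time in DKO Idh1 (0.59 ± 0.16, adjusted p = 0.0397), Me2 (0.45 ± 0.13, adjusted p = 0.0416), Me3 (0.80 ± 0.23, adjusted p = 0.0455) and Nnt (0.39 ± 0.11, adjusted p = 0.047) rose, 4 of 15 measured where 7.57% of all genes passed. With 1 array left out Idh1 passed in 5 of 14 fits, Me2 in 6, Me3 in 5 and Nnt in 2, and without DKO 5-week replicate 1 the differences of Me2 and Nnt were 0.28 (adjusted p = 0.44) and 0.19 (adjusted p = 0.532). In WT Me3 rose (0.89 ± 0.19, adjusted p = 0.0209).

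The ER oxidative folding list, the disulfide-forming machinery in which Prdx4 works, had 15 measured genes. None passed between genotypes at 7 months, with a list median of 0.24 against 0.01 over all genes. With time in DKO 2 rose, where 7.57% of all genes passed. They were P4hb, protein disulfide isomerase (0.57 ± 0.14, adjusted p = 0.0221), and Selenos, a selenoprotein of ER protein degradation (0.74 ± 0.19, adjusted p = 0.0311). P4hb was 11.24, 11.10, 11.36 and 11.47 in WT and 11.62, 11.29, 11.77 and 11.79 in DKO at 7 months. Selenos was 7.90, 7.66, 7.66 and 8.10 in WT and 8.49, 7.84, 8.68 and 8.61 in DKO. For both genes DKO replicate 2 lay inside the WT range and the other 3 above it, as for Prdx4. Without replicate 2, left out after its values were seen, 8 of the 15 were higher in DKO at 7 months, where 8.93% of all genes passed, among them Selenos (0.76, adjusted p = 0.0012), Erp29 (0.66, adjusted p = 0.00926) and Erp44 (0.54, adjusted p = 0.00884). At 5 weeks Qsox1, a sulfhydryl oxidase of the secretory pathway, was lower in DKO by 0.87 ± 0.19 (adjusted p = 0.0377), and Txndc12, an ER protein of the thioredoxin list, by 0.44 ± 0.08 (adjusted p = 0.0186). Both calls were lost without DKO 5-week replicate 1 (adjusted p = 0.265 and 0.15) or replicate 2 (adjusted p = 0.11 and 0.0808) and with the acinar covariate (adjusted p = 0.13 and 0.066). The acinar sums of both DKO 5-week arrays (14478 and 11459) were above those of the 4 WT 5-week arrays (1862 to 11185). The part of acinar cells in the Qsox1 and Txndc12 differences was not tested.

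In the thioredoxin and glutaredoxin list 2 of 14 were higher in DKO than in WT at 7 months, where 4.71% of all genes passed. They were Nxn (nucleoredoxin, 0.62 ± 0.12, adjusted p = 0.00713) and Txn1, the thioredoxin that Txnip inhibits (0.53 ± 0.14, adjusted p = 0.0484). Txn1 was 8.99, 8.42, 9.02 and 9.18 in DKO and 8.29, 8.24, 8.39 and 8.56 in WT, replicate 2 again inside the WT range. Gpx8, the ER-resident glutathione peroxidase, was higher in DKO at 7 months (0.53 ± 0.11, adjusted p = 0.0107) and rose with time in DKO (0.77 ± 0.13, adjusted p = 0.00268). The 4 DKO 7-month arrays (4.89 to 5.01) were above the 4 WT arrays (4.27 to 4.63). Gpx8 and Nxn kept their 7-month call without any single array, whereas Txn1 kept it in 3 of 14 such fits and lost it with the acinar covariate (0.61, adjusted p = 0.0555). Of 7 other peroxiredoxins and repair enzymes none passed for genotype, and mitochondrial Prdx3 rose with time in DKO (0.46 ± 0.12, adjusted p = 0.0268).

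Of the 21 Nrf2 regulators and targets measured beside Hmox1 and Nqo1, none passed at 5 weeks, and Ephx1 (0.43 ± 0.11, adjusted p = 0.0296) and Akr1b8 (0.42 ± 0.11, adjusted p = 0.0494) were higher in DKO at 7 months. Akr1b8 was dim (2.94 to 3.84, below every array's median) and passed in 3 of 14 fits with 1 array left out. With time in DKO Cbr3 (0.82), Osgin1 (0.92) and Sqstm1 (0.34) rose and the ferritin light chain gene Ftl1 fell by 0.73 (adjusted p = 0.0182 to 0.0496). Cbr3 was dim, at 3.06 to 4.24 in the 14 arrays. With 1 array left out Cbr3 passed in 13 of 14 fits, Osgin1 in 11, Sqstm1 in 4 and Ftl1 in 3. Osgin1 was 0.43 without DKO 5-week replicate 1 (adjusted p = 0.413) and 1.40 without DKO 5-week replicate 2 (adjusted p = 0.0035). Of 23 genes for glutathione synthesis, uptake and transfer none passed for genotype, and Gsto1 rose with time in WT (0.45 ± 0.10, adjusted p = 0.0256) and in DKO (0.65 ± 0.12, adjusted p = 0.00419). Among haem, iron and metal genes Mt3 was higher in DKO at 7 months (0.93 ± 0.21, adjusted p = 0.0186), and Blvra, which reduces the biliverdin that Hmox1 makes, rose with time in DKO (0.66 ± 0.15, adjusted p = 0.0158). The metal-binding metallothionein Mt2 was 10.98, 11.24, 10.54 and 10.30 in WT and 9.64, 11.14, 8.90 and 8.70 in DKO at 7 months, a difference of -1.17 ± 0.41 (adjusted p = 0.131). DKO replicate 2 lay inside the WT range and the other 3 below it, and without replicate 2 Mt2 was lower in DKO by 1.68 ± 0.27 (adjusted p = 0.00219).

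Among 17 measured producers of superoxide and peroxide Nox4 was higher in DKO at 7 months (0.45 ± 0.12, adjusted p = 0.0424), on a dim probe set (2.33 to 3.01 in the 14 arrays, below every array's median) and in 4 of 14 fits with 1 array left out. Also, Noxo1 (0.49 ± 0.10, adjusted p = 0.00825) and Cyba (0.93 ± 0.25, adjusted p = 0.0332) rose with time in DKO, as did the extracellular Sod3 (0.85 ± 0.23, adjusted p = 0.0349). Sod3 was dim, at 3.00 to 4.67 in the 14 arrays, and passed in 10 of 14 fits with 1 array left out. The selenoprotein synthesis list had 9 measured genes, among them the selenoproteins Selenop, Selenow, Selenot and Selenom. Of the 9, Sepsecs was lower in DKO at 7 months by 0.43 ± 0.11 (adjusted p = 0.034). Markers of some other cells also differed: the 12 stellate and fibroblast markers summed to 1125 to 1551 in DKO and 801 to 892 in WT at 7 months. The 16 macrophage markers summed to 741, 862, 846 and 1162 in DKO 7-month replicates 1 to 4 and to 734 to 828 in WT. Replicate 1 thus lay inside the WT range, and 4 of the 16 passed for genotype, all higher, where 4.71% of all genes passed. The 9 T and B cell markers summed to 304 in DKO 7-month replicate 4, against 81.1 to 97.6 in the other 7 arrays of that time. Replicate 4 also had the highest macrophage sum and the highest Cyba signal (6.32, against 4.98 to 5.70 in the other 3), and without it Cyba rose by 0.69 (adjusted p = 0.0292). Their part in these differences was not tested.

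**Figure D5:**
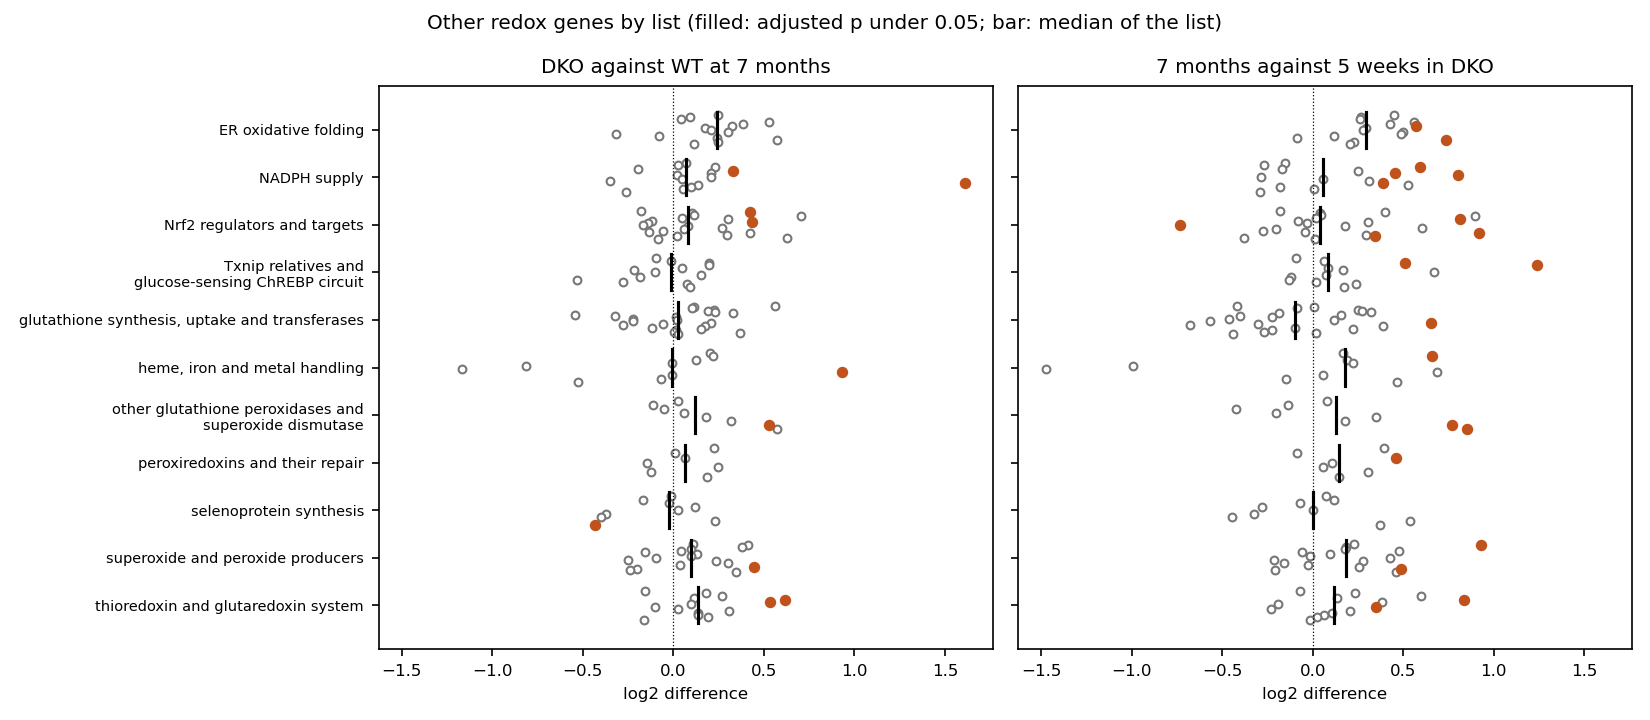
Log2 difference of each measured gene of the 11 redox lists for DKO against WT at 7 months (left) and 7 months against 5 weeks in DKO (right), with filled points where the adjusted p was under 0.05 and a bar at each list's median. The point farthest right at 7 months is Nnt (1.61), and the ER oxidative folding list has a median of 0.24 on the left with no filled point.

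The genes most like Prdx4 over the 14 arrays were Dclk1 (r = 0.96, rho = 0.912), Maged2 (r = 0.959, rho = 0.776) and Lmf2 (r = 0.953, rho = 0.846), with r of 0.902, 0.934 and 0.933 without the 2 arrays farthest from the Prdx4 median. In each of them DKO 7-month replicates 1, 3 and 4 were the upper arrays: Maged2 was 8.25, 7.44, 8.51 and 8.51 in that group and 7.28 to 7.75 in WT at 7 months. The genes most like Cat were Ldlrad2 (r = 0.863, rho = 0.767), Cyct (r = 0.858, rho = 0.82) and H1f8 (r = 0.857, rho = 0.83), each dim, with signals between 1.80 and 3.00.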

How the data were processed

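The deposited values are log2 and were produced by the authors with RMA, per the submitters' processing notes, whose version was not given. Per the labels' protocols, 100 ng of islet RNA was labelled with biotin by a whole-transcript sense assay. Of 35556 probe sets, 21218 had 1 gene symbol, 1881 several and 12457 none; the latter kinds were left out. Symbols were updated by Entrez identifier for 18790 of 18820 genes. Values were used as deposited. RMA puts arrays on a shared distribution, so a change in total RNA cannot be seen, and array numbers limit precision. limma 3.58.1 in R 4.3.3 (lmFit, eBayes) fitted 1 mean per group over 14 arrays, with Benjamini-Hochberg adjustment over all genes, and was tested on simulated data. There 1.5-fold changes passed in 44% (genotype at 5 weeks), 72% (7 months), 78% (time in WT), 46% (time in DKO) and 24% (interaction) of cases. For 2-fold changes the shares were 80%, 100%, 94%, 92% and 60% in the same order. The simulated noise was normal, with the same spread for a gene in every group and no array set apart. Txnip and Gpx3 in DKO at 7 months were not like that, so these shares do not hold for such genes. A gene that did not pass may thus still differ. P-values set each difference against the spread of arrays within groups. That spread was pooled over all groups and moderated across genes, so a wide group affects each comparison.

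The members and all gene lists were chosen with earlier results of these data known. Named were the 10 members, up to 4 genes per list and comparison past the threshold, and the 3 genes most like Txnip and each called member; genes named without DKO 7-month replicate 2, and genes such as Mlxipl named for their values, were chosen after their values were seen. Marker lists, named by cell type, were summed on the linear scale. Promoters come from RefSeq GRCm38.p6. Figures were drawn with matplotlib 3.10.9 in Python 3.11.15. Alternatives changed the prior, probe set rule, scaling, covariates, weights and arrays used.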

Additional observations from a re-analysis of the deposited data

Results flagged for a closer look

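In groups of 4 arrays, 30 member and group pairs were checked for an array far from the others by Dixon's ratio (gap over range), whose 95% critical value chance exceeds in about 1 in 20 groups. Sod1 in WT at 7 months replicate 2 had a ratio of 0.846, with 9.99 against 10.09 to 10.10 in the other arrays. Gpx3 in DKO at 7 months replicate 2 had a ratio of 0.876, with 9.75 against 11.27 to 11.49.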

How the results depend on the processing

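The 10 members were recomputed in 5 comparisons, 1240 values in all: 1203 stayed on their side of the threshold, 21 lost and 16 gained a call, and no called value changed sign. Members called at 5 weeks were 0, or 1 (Txnip) with only the arrays compared. At 7 months they were 2, against 3 with a trended robust prior, with dim genes left out or with arrays centred on their medians, 0 with all probe sets tested, with the acinar covariate or with only the arrays compared, 1 with the replicate number as a block, and 0 to 3 with 1 array left out. Over time in WT they were 0, against 1 with array weights, 2 (Gpx3 and Txnip) with only the arrays compared, and 0 to 1 with 1 array left out. Over time in DKO they were 1, against 2 with dim genes left out, with arrays centred on their medians or with array weights, 0 with the replicate block or only the arrays compared, and 0 to 2 with 1 array left out. For the interaction they were 0, and 0 to 1 with 1 array left out. The causes were not tested. Replicate numbers did not pair the arrays (same-number correlations -0.163 to 0.158), and with that block Cat at 7 months had adjusted p = 0.0544 and Prdx4 over time in DKO 0.0513.

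Genes called of all 18820 were 187 at 5 weeks (44 to 282 over the alternatives), 887 at 7 months (488 to 1681), 446 over time in WT (221 to 786), 1424 over time in DKO (347 to 2051) and 17 for the interaction (0 to 185). Centring arrays on their medians made 69.6% of 7-month calls higher in DKO, against 51.9%, 76.1% of calls over time in DKO higher, against 64.3%, and 58.3% for the interaction, against 29.4% (42.9% with quantile normalization repeated). Redox list genes called ranged from 1 to 4, 3 to 26, 0 to 8, 1 to 37 and 0 in the same order. The 2 DKO 5-week arrays limit each comparison that uses them.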
